A study of Homo sapiens with 18 samples.

Results

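Replication-dependent histone mRNAs are transcribed and cut at their 3' ends by a small set of dedicated and borrowed proteins, and 10 genes for such proteins were followed here: SLBP, NPAT, CASP8AP2, LSM10, LSM11, ZNF473, ERI1, CPSF3, CSTF2 and SYMPK. They were chosen by gene symbol, out of 27781 genes in the table, for known roles in the histone locus body or in histone mRNA processing. Measured values were not the criterion, but earlier results of these data were known when the choice was made. All 10 had enough counts to enter the test. The RNA came from K562, an established line from a human BCR-ABL1-positive leukemia, and the study title places circPCMTD1 in the DNA damage response of such leukemias. Scrambled antisense gapmers were given to the control cells, while the knockdown cells received gapmers that pair with the backsplice junction of a circular RNA from PCMTD1, circPCMTD1. Gapmers are antisense oligonucleotides that lead RNase H to the RNA they pair with; the protocols and treatment labels name gapmers, the sample descriptions siRNA, and gapmers are taken here. Both groups shared the cell line, the transfection and a harvest 48 hours later, and untransfected cells were not analysed here. There were 18 libraries, 3 technical ones for every biological replicate, and they were summed per replicate, so n = 3 per group.

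Most mRNAs end in a poly(A) tail, but replication-dependent histone mRNAs end just after a conserved stem-loop. NPAT, a substrate of cyclin E and CDK2, gathers at the histone gene clusters in the histone locus body and drives their transcription together with CASP8AP2, also called FLASH. As the RNA is made, SLBP binds the stem-loop and the U7 small nuclear ribonucleoprotein pairs with a purine-rich element downstream. LSM10 and LSM11 belong to the U7 particle in place of a pair of Sm proteins, LSM11 together with CASP8AP2 recruits a cleavage complex that contains symplekin (SYMPK), the endonuclease CPSF3 and CSTF2, and ERI1 is the exonuclease that trims the end. In dividing cells this system supplies histones during S phase, and SLBP is degraded when S phase ends.

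The RNA element on which these proteins meet is shown first, because SLBP, ZNF473 and ERI1 all act on it. A stem of 6 base pairs closed by a loop of 4 bases, beginning with GG and ending with CC, was found in the GENCODE transcript models of 26 of 62 histone genes, in 5 distinct forms. For each form the carrier gene with the highest mean level is printed as DNA with 5 bases on either side, in the direction of the mRNA, and capitals mark the stem-loop.
H4C11: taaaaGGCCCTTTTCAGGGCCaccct
H4C15: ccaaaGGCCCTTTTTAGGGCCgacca
H2BC4: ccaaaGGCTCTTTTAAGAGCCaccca
H3C14: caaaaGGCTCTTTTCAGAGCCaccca
H2AC11: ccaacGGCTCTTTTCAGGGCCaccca
In GRCh38 these lie at chr6:27824454-27824479 (plus strand), chr1:149860764-149860789 (minus), chr6:26123467-26123492 (minus), chr1:149840687-149840712 (minus) and chr6:27133510-27133535 (plus). The model of H4C11 ends 6 bases after the stem-loop, close to where a processed histone mRNA ends, and the other 4 models run on for 116 to 1761 bases. The forms differ within the stem and in the last base of the loop. The opening GG, T bases at the start of the loop and the closing CC were conditions of the search. That all 5 forms share them was therefore fixed in advance. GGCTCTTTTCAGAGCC was carried by 13 genes, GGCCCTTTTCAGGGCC by 5, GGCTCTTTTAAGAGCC by 4, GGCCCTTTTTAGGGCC by 3 and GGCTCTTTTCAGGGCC by 1.

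Many genes that act in S phase are textbook targets of E2F factors, so the members' own promoters were searched as well. RefSeq promoters, 300 bases from 250 before to 50 after the start, were matched for 8 of the 10 members. ZNF473 and ERI1 had no match, so their promoters were not searched. The E2F core was searched on both strands as TTTCCCGC, TTTGGCGC, TTTCGCGC or TTTGCCGC. It occurred in 3 of the 8, each time as TTTGGCGC on the gene's own strand, and the matches are shown in capitals with 10 bases on either side.
CASP8AP2: attactggagTTTGGCGCcaaccgtgtt
CPSF3: tgccgcggccTTTGGCGCccaggcagct
CSTF2: ggaagtgtgcTTTGGCGCaccggaagcc
In GRCh38.p14 these windows lie on the plus strand at chr6:89829721-89829748, chr2:9423426-9423453 and chrX:100820375-100820402, with the match beginning 149, 218 and 6 bases before the RefSeq start. A match was present in 3.3% of all 35116 RefSeq promoters and in 5.33% of the 11523 promoters of tested genes. Among tested genes 17.6% of those with a match and 19.4% of those without one were called changed between the groups. Of the 3 members with a match, CSTF2 was called raised and the others were not called.

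Before the comparison, the libraries were checked. They held 19118533 to 29432699 counts each, and the sums 63851576 to 76087774. PCMTD1, the host gene of the targeted circle, fell from 20.6 ± 1.13 to 12.3 ± 0.515 CPM (counts scaled to the library total; SD, n = 3; adjusted p = 7.57e-10). The labels call the cells lymphoblasts: all 11 K562 markers were at 1 CPM or more, whereas 1 of 6 B lymphoid markers (CD22), 1 of 7 T lymphoid markers (CD3D) and 2 of 6 monocyte markers (LYZ and ITGAM) were, and the B cell marker MS4A1 was at 0. The summed marker levels did differ by group, with ranges over the sums of 11924 to 12047 CPM in scrambled and 12461 to 13092 CPM in knockdown cells for K562 markers, 4.84 to 5.90 and 6.397 to 6.575 for B lymphoid, 4.71 to 5.27 and 6.86 to 7.20 for T lymphoid, and 40.1 to 42.0 and 49.3 to 50.1 for monocyte markers; their part in the results below was not tested. Few genes made up most of each sum: HBG2 (5228 CPM on average) and HBG1 (3696), CD22 (5.16), CD3D (5.55) and LYZ (41.2). Of 11 K562 markers 3 were called raised and 1, TAL1, lowered (log2 -0.13). Of 4 tested monocyte markers LYZ was called raised (log2 0.34) and ITGAM lowered (log2 -0.36). In knockdown replicate 3, the technical libraries 3_2 and 3_3 stood apart from the other 7 knockdown libraries. Among the members, NPAT, CASP8AP2, ERI1 and CPSF3, whose longest transcripts had a GC content of 37.1% to 43.5%, were 0.16 to 0.19 higher (log2) in those libraries, and SYMPK, with 56.6%, was lower, at -0.17, while LSM10, with 58.3%, was at 0.018.

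**Figure D1:**
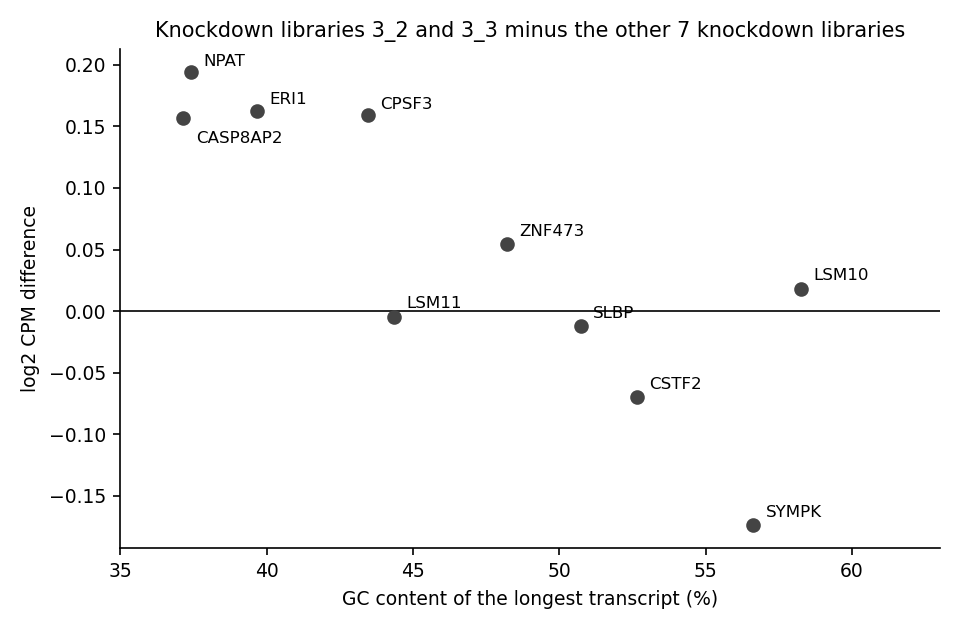
GC content of each member's longest transcript in percent (x axis) against the log2 difference in CPM between knockdown libraries 3_2 and 3_3 and the other 7 knockdown libraries (y axis), 1 labelled point per gene. NPAT, CASP8AP2, ERI1 and CPSF3 lie at 0.16 to 0.19 and SYMPK at -0.17, while the other 5 genes lie between -0.07 and 0.05.

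In scrambled cells the members differed widely in level. Per length of exon (RPKM, computed from TMM-scaled totals), SLBP was the most abundant at 63.1 ± 0.536 (SD, n = 3), followed by the cleavage factors CPSF3 at 28.8 ± 0.316 and CSTF2 at 26.5 ± 0.264. LSM10 at 18.8 ± 0.0250 and SYMPK at 18.2 ± 0.405 came next, and their replicate ranges did not overlap. NPAT at 10.6 ± 0.311, ZNF473 at 10.4 ± 0.210 and CASP8AP2 at 10.2 ± 0.171 came after them, and the ZNF473 range overlapped both of the others, while the ranges of NPAT and CASP8AP2 did not overlap. ERI1 at 8.10 ± 0.145 and LSM11 at 3.15 ± 0.0422 RPKM were the lowest of the 10. LSM10 and LSM11 sit in the same U7 ring, and the LSM10 level per length was 5.98 times the LSM11 level. SLBP mRNA stood at 20.05 times LSM11 and 7.79 times ERI1 on the same scale. Before division by length, LSM10 and LSM11 stood at 28.2 and 20.7 CPM, with 1496 and 6584 bases of exon over all annotated transcripts. Which transcripts K562 makes was not determined, so levels and ranges compared between genes hold only for these lengths. The deepest member was SYMPK with 78083 counts over the 18 libraries and the shallowest LSM11 with 8803.

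**Figure D2:**
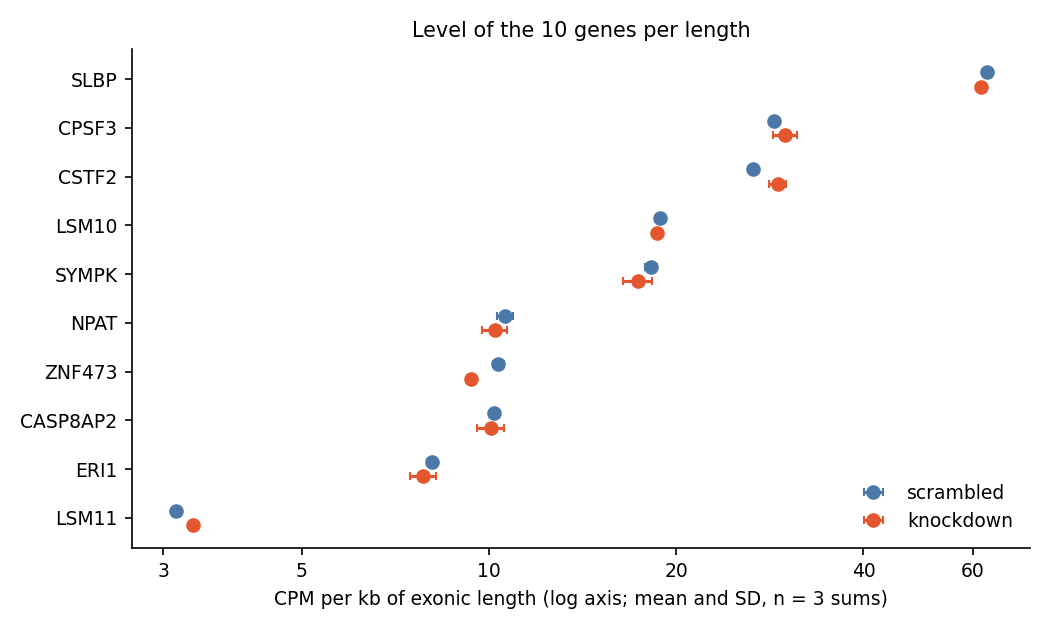
Level per exon length (RPKM, log axis) of each member in scrambled and knockdown cells, points being means and bars SDs of the 3 summed replicates of a group, ordered by the scrambled mean. SLBP at 63.1 lies 2.19 times above CPSF3, and LSM11 at 3.15 is the lowest, while the points of the 2 groups lie close together for each gene.

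Knockdown and scrambled cells were then compared gene by gene with edgeR's quasi-likelihood test and Benjamini-Hochberg adjustment over all 15678 tested genes, at an adjusted p below 0.05. Of the 10 members, ZNF473 fell and CSTF2 rose, each by about 10%, and 8 were not called. Called either way were therefore 2 of 10 members, against 18.6% of all tested genes. The 1 raised member compares with 11.1% of all genes raised (1745), and the 1 lowered member with 7.49% lowered (1175). The median log2 fold change was -0.026 over the members and 0.0022 over all tested genes. The replicate ranges of the groups did not overlap for 5 of 10 members, against 34.6% of tested genes. The labels name biological replicates without saying how they were separated, so the p-values measure the spread between these samples, which may be technical.

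**Figure D3:**
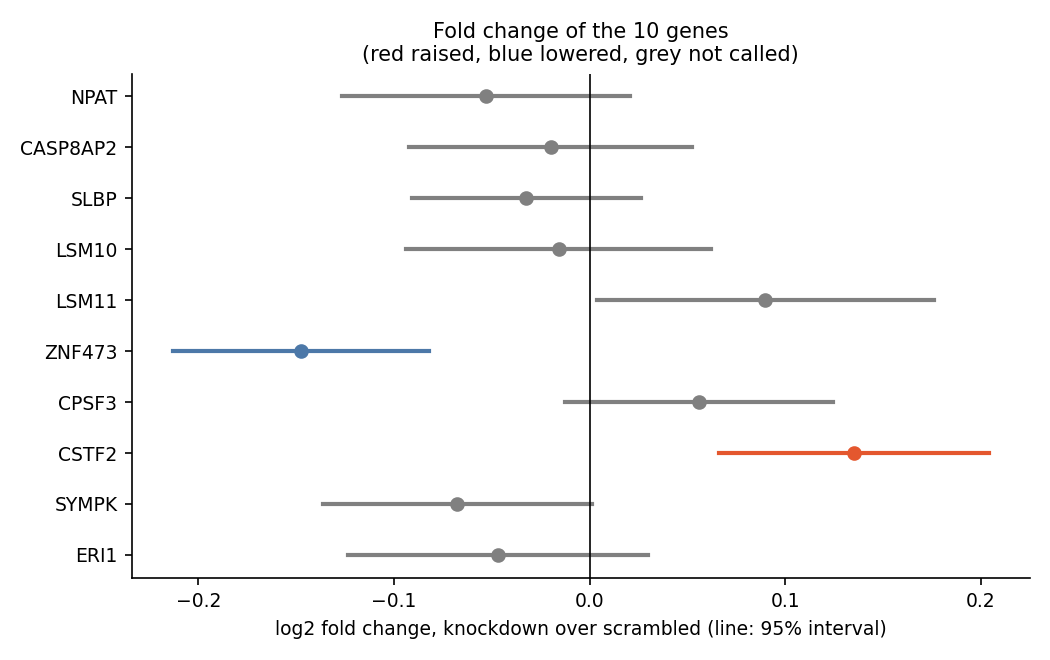
Log2 fold change of each member, knockdown against scrambled, with its 95% confidence interval (x axis) from edgeR's quasi-likelihood fit on 3 sums per group. ZNF473 at -0.15 and CSTF2 at 0.14 are the called members, and the other 8 lie between -0.07 and 0.09.

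Transcription of the histone genes is the task of NPAT and CASP8AP2. NPAT, on chromosome 11 from 108157215 to 108222642 (GRCh38, minus strand), stood at 78.3, 79.0 and 82.6 CPM in scrambled replicates 1, 2 and 3 and at 75.2, 74.9 and 81.1 CPM in the knockdown replicates. Knockdown replicate 3 lay within the scrambled range and the other knockdown replicates below it. The log2 fold change was -0.053 (SE 0.036, adjusted p = 0.329, not called). Its value depended on the samples used. Without knockdown libraries 3_2 and 3_3 it was called lowered, at -0.099 with an adjusted p of 0.000424. After a correction for GC content it was called lowered at -0.075 with an adjusted p of 0.0062. Calls grew more frequent over all tested genes too, at 32% in the former setting and 31.5% in the latter, against 18.6% as reported. Leaving out scrambled replicate 3 moved NPAT the other way, to -0.029 (not called). NPAT overlaps the start of ATM on the opposite strand, and ATM, with 105.4 ± 1.74 CPM in scrambled and 100.7 ± 6.49 CPM in knockdown cells, was not called either (adjusted p = 0.237).

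CASP8AP2, the scaffold that links the histone locus body to the U7 particle, lies on chromosome 6 from 89829894 to 89874436 (plus strand). It stood at 83.7, 81.9 and 84.6 CPM in scrambled cells and at 79.7, 80.2 and 86.9 CPM in knockdown cells. As for NPAT, knockdown replicate 3 was the highest of its group, here above every scrambled replicate, and the ranges overlapped. Its log2 fold change was -0.020 (SE 0.035, adjusted p = 0.749, not called). Without knockdown replicate 3 it was called lowered, at -0.061 with an adjusted p of 0.0482, while leaving out libraries 3_2 and 3_3 alone gave -0.054 with an adjusted p of 0.0587. The GC correction gave -0.044 with an adjusted p of 0.122, not called.

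SLBP, the stem-loop binding protein, lies on chromosome 4 from 1692800 to 1712555 (minus strand). Its level was 126.6, 128.8 and 128.1 CPM in scrambled replicates and 124.2, 125.2 and 125.6 CPM in knockdown replicates. Every knockdown sum lay below every scrambled sum, but by a small margin, and the single libraries overlapped, from 122.0 to 133.5 CPM in scrambled and from 119.9 to 129.1 CPM in knockdown cells. The difference was -2.21%, with a 95% interval from -6.09% to 1.83% (adjusted p = 0.473, not called). SLBP protein was not measured.

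ZNF473, also known as ZFP100, is a zinc finger protein that joins SLBP on the stem-loop to LSM11 of the U7 particle, and lies on chromosome 19 from 50025714 to 50053414 (plus strand). It stood at 71.1, 73.0 and 70.1 CPM in scrambled replicates 1, 2 and 3 and at 64.4, 64.1 and 64.9 CPM in knockdown replicates. All knockdown values lay below all scrambled values, and this held in the single libraries too: 9 scrambled libraries ran from 68.5 to 73.9 CPM with a median of 71.5, and 9 knockdown libraries from 62.2 to 67.0 CPM with a median of 64.6. ZNF473 fell by 0.15 on the log2 scale (SE 0.032, adjusted p = 0.00209), a change of -9.72% with a 95% interval from -13.7% to -5.52%. The value was -0.16 without libraries 3_2 and 3_3 (adjusted p = 3.35e-08) and -0.14 after GC correction. ZNF473 overlaps the start of VRK3 on the opposite strand, and VRK3 stood at 48.9 ± 1.24 and 48.7 ± 0.240 CPM, with a log2 fold change of -0.0045 (adjusted p = 0.949, not called).

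LSM10 and LSM11 are the proteins particular to the U7 ring. LSM10, on chromosome 1 from 36391238 to 36397892 (minus strand), stood at 28.2, 28.2 and 28.1 CPM in scrambled and 27.8, 28.0 and 27.8 CPM in knockdown replicates. These sums did not overlap, yet the single libraries did, from 26.4 to 29.7 CPM and from 26.3 to 28.9 CPM, and the log2 fold change was -0.016 (SE 0.037, adjusted p = 0.821, not called). LSM11, on chromosome 5 from 157743695 to 157760709 (plus strand), stood at 20.73, 20.44 and 20.996 CPM in scrambled and 21.7, 22.4 and 22.0 CPM in knockdown replicates. All its knockdown sums lay above all scrambled sums, and the single libraries overlapped, from 18.96 to 22.95 CPM and from 20.62 to 23.98 CPM. The difference of 6.43% had a 95% interval from 0.257% to 12.98% and missed the threshold once adjusted over all genes (adjusted p = 0.142, not called). LSM11 was the shallowest member, and its adjusted p over the alternative settings went no lower than 0.0534.

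**Figure D4:**
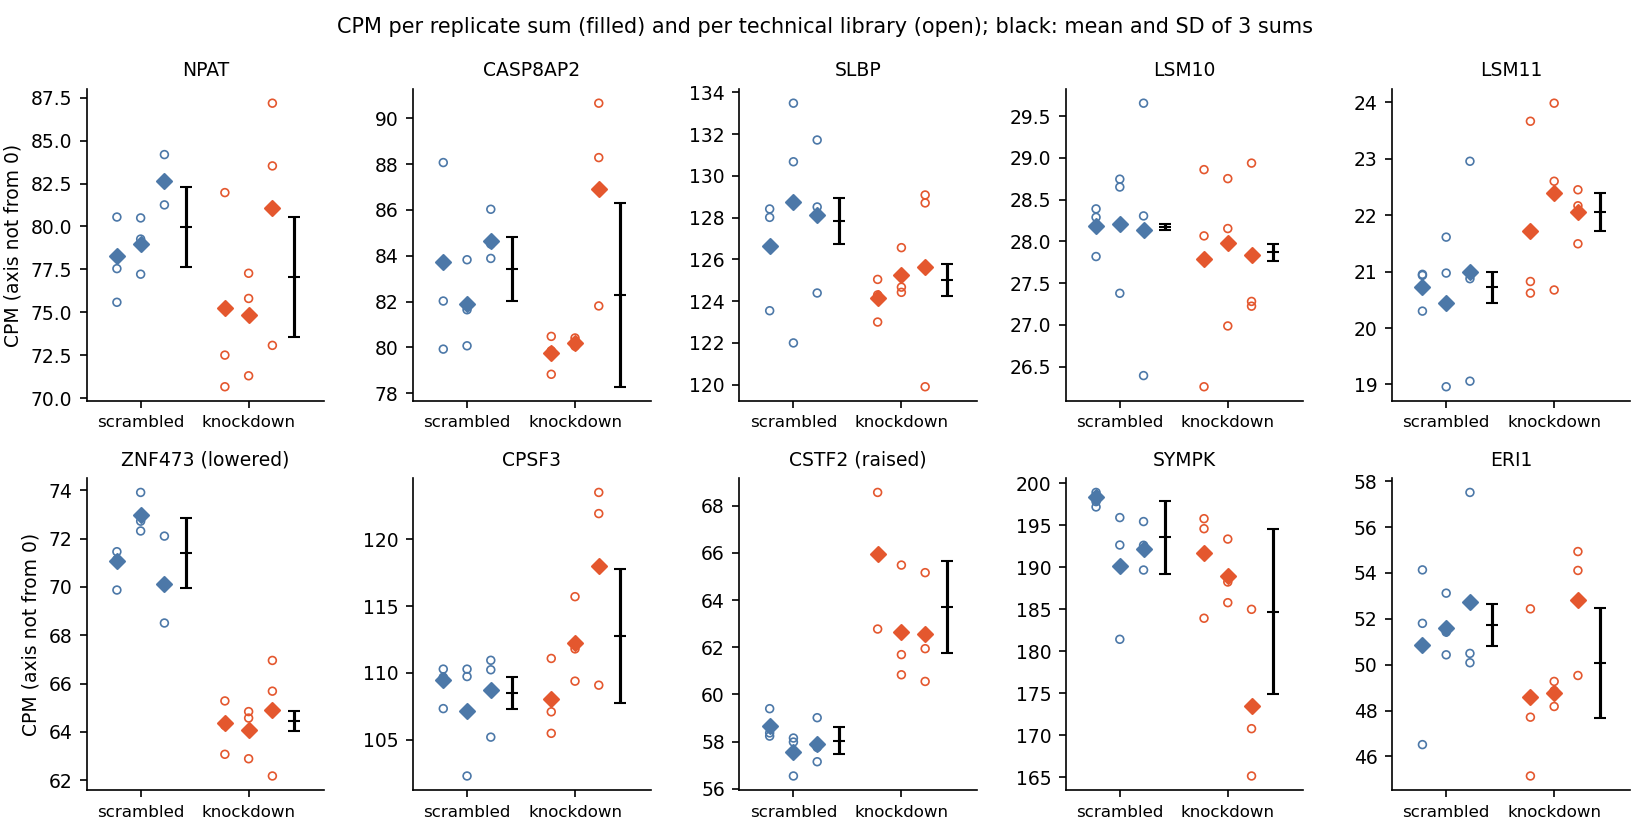
CPM of each member in the 3 scrambled and 3 knockdown sums (filled, replicates 1, 2 and 3 from left to right) and in their technical libraries (open), with the mean and SD of the sums in black, 1 panel per gene with its own axis that does not begin at 0. The groups separate by about 10% in ZNF473 (71.4 to 64.5 CPM) and CSTF2 (58.0 to 63.7 CPM), and knockdown replicate 3 departs from replicates 1 and 2 in NPAT, CASP8AP2, ERI1, CPSF3 and SYMPK.

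The cleavage complex holds CPSF3, CSTF2 and SYMPK, which histone pre-mRNA cleavage shares with polyadenylation. CSTF2, the RNA-binding subunit of the cleavage stimulation factor, lies on chromosome X from 100820359 to 100840932 (plus strand). It stood at 58.7, 57.5 and 57.9 CPM in scrambled replicates 1, 2 and 3 and at 66.0, 62.6 and 62.6 CPM in knockdown replicates. Every knockdown value was above every scrambled value, in the sums and also in the single libraries, which ran from 56.5 to 59.4 CPM (median 58.2) against 60.6 to 68.6 CPM (median 62.8). CSTF2 rose by 0.14 on the log2 scale (SE 0.033, adjusted p = 0.00622), a change of 9.81% with a 95% interval from 4.69% to 15.2%. Knockdown replicate 1 was the highest, and the rise was 0.15 without libraries 3_2 and 3_3 (adjusted p = 6.08e-07) and 0.14 after GC correction. CSTF2T, the intronless paralogue of CSTF2, stood at 62.5 ± 1.52 and 65.2 ± 1.68 CPM and was not called (log2 0.062, adjusted p = 0.22), though without libraries 3_2 and 3_3 it was called raised at 0.083 with an adjusted p of 0.00678. Whether reads were shared between CSTF2 and CSTF2T was not tested.

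CPSF3, the endonuclease that makes the cut, lies on chromosome 2 from 9423568 to 9473101 (plus strand). It stood at 109.5, 107.2 and 108.7 CPM in scrambled and 108.1, 112.2 and 118.0 CPM in knockdown replicates. Knockdown replicate 3 was the highest and replicate 1 lay within the scrambled range, so the groups overlapped. The log2 fold change was 0.056 (SE 0.033, adjusted p = 0.263, not called), and it was 0.018 without libraries 3_2 and 3_3. With the GC correction the gene was called raised at 0.057 (adjusted p = 0.0286). INTS11, the paralogue of CPSF3 that cuts small nuclear RNA precursors in the Integrator complex, stood at 122.7 ± 3.43 and 120.2 ± 6.83 CPM (log2 -0.030, adjusted p = 0.621, not called), and at 0.0073 without those libraries. After the GC correction INTS11 was called lowered, at -0.058 with an adjusted p of 0.0174.

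SYMPK encodes symplekin, the scaffold of the cleavage complex, on chromosome 19 from 45815410 to 45863290 (minus strand). Its level was 198.4, 190.1 and 192.2 CPM in scrambled and 191.7, 189.0 and 173.4 CPM in knockdown replicates. Knockdown replicate 3 alone lay far below the rest, while the others lay close to the lower scrambled values. The log2 fold change was -0.068 (SE 0.033, adjusted p = 0.168, not called), and it was -0.035 without libraries 3_2 and 3_3. It was called lowered after the GC correction (-0.076, adjusted p = 0.000774), and also on uncorrected counts when technical libraries were entered singly (adjusted p = 0.0437) or summed by the second number of their names (adjusted p = 0.0012).

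ERI1, the exonuclease that trims the stem-loop end and takes part in histone mRNA decay, lies on chromosome 8 from 9002147 to 9116746 (plus strand). It stood at 50.9, 51.6 and 52.7 CPM in scrambled and 48.6, 48.8 and 52.8 CPM in knockdown replicates. Knockdown replicate 3 exceeded every scrambled value and the other knockdown replicates lay below the scrambled range, as for CASP8AP2. The log2 fold change was -0.047 (SE 0.037, adjusted p = 0.419, not called). Without libraries 3_2 and 3_3 it was called lowered, at -0.083 with an adjusted p of 0.015. After the GC correction it was not called, at -0.057 with an adjusted p of 0.0829.

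The 8 members that were not called had unadjusted 95% intervals with a lowest bound of -9.02% (SYMPK) and a highest of 12.98% (LSM11). The intervals differed by gene: that of SLBP ended at 1.83%, and that of LSM11 began at 0.257%, above 0. Sizes inside a gene's own interval were not told apart. ZNF473 and CSTF2 were called, in these directions, under each of 19 alternative settings. These settings reuse the same libraries and are not independent of each other. Those with technical libraries entered singly or summed by the second number do not take the replicate sums as the unit. CSTF2 came closest to the threshold without scrambled replicate 2, with an adjusted p of 0.0483, and ZNF473 there too, with 0.0329.

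**Figure D5:**
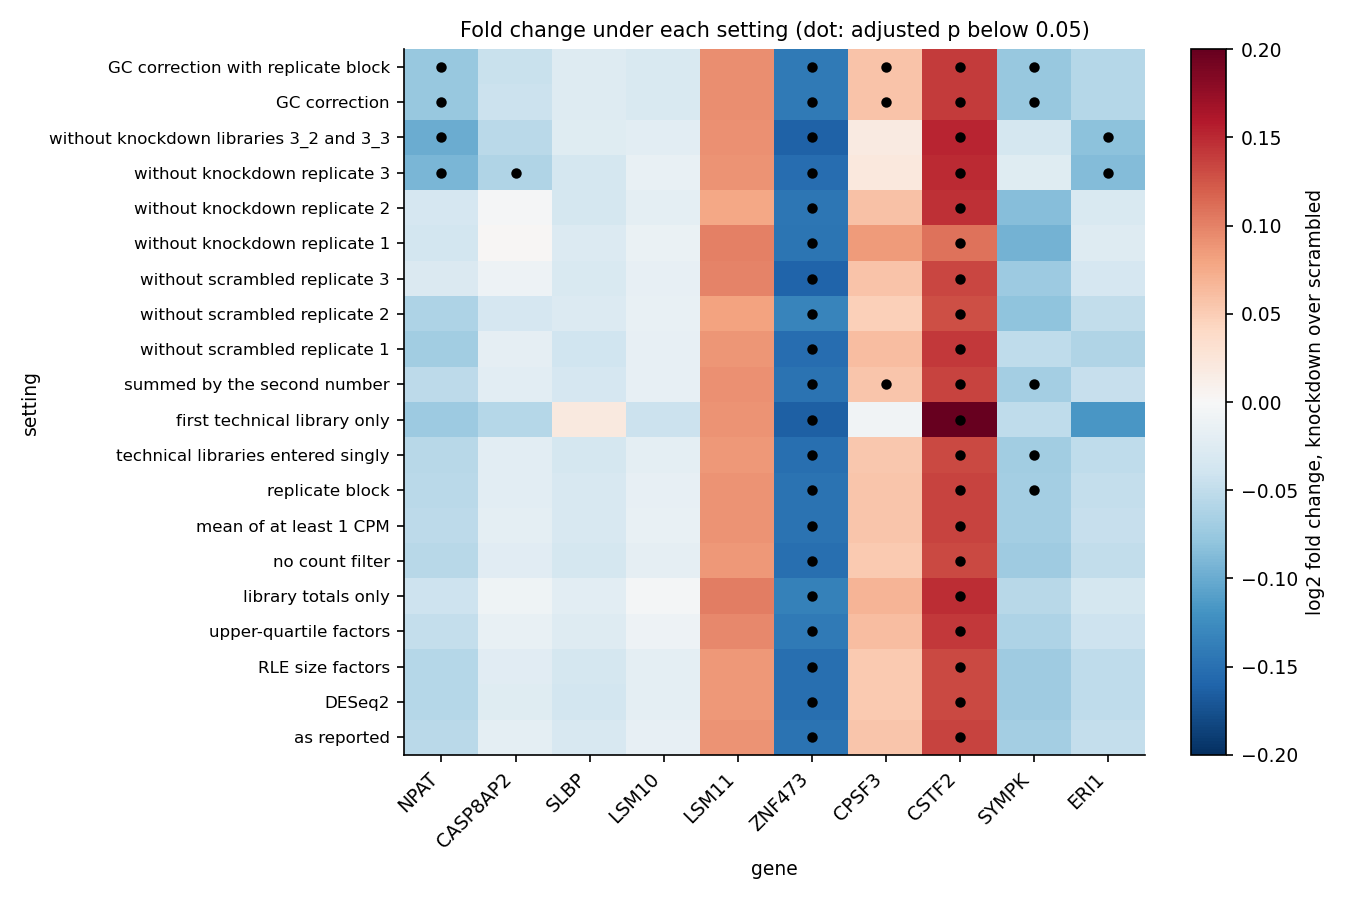
Log2 fold change of each member (columns) as reported and under 19 alternative settings (lines), with called values marked. ZNF473 (-0.16 to -0.13) and CSTF2 (0.11 to 0.20) are called in each line, while calls of NPAT, CASP8AP2, ERI1, CPSF3 and SYMPK come and go with the setting.

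The messages on which these proteins act were lower in knockdown cells. Of 66 replication-dependent histone genes 57 could be tested, and 35 fell and 0 rose by edgeR's quasi-likelihood test. Over all tested genes 7.49% were lowered and 11.1% raised. The median log2 fold change of the histone genes was -0.11, against 0.0022 over all genes. At an unadjusted p below 0.05, 46 were lower and 0 higher, a cut for which the share over all genes was not counted. DESeq2 also called 35 lowered and 0 raised, against 1087 lowered and 1285 raised of 23225 genes. H3C4, an H3 gene, fell from 80.2 ± 1.09 to 67.9 ± 0.963 CPM (log2 -0.24, adjusted p = 1.03e-05), the linker histone gene H1-3 from 115.9 ± 1.54 to 102.3 ± 1.68 CPM (log2 -0.18), and H4C2, an H4 gene, from 188.3 ± 8.46 to 162.1 ± 9.86 CPM (log2 -0.22). Summed over the list, histone mRNA stood at 10308, 10145 and 9993 CPM in scrambled and 9561, 9670 and 9187 CPM in knockdown replicates. All knockdown sums were the lower, by -0.10 on the log2 scale, and a two-sided exact permutation test gave p = 0.1, the smallest that 3 against 3 samples allow. Without libraries 3_2 and 3_3 the difference was -0.073 and 41 histone genes were called lowered. In that setting lowered calls rose over all genes as well, to 2426 of 15653 tested, from 1175 of 15678 as reported. Many histone genes are near-identical copies, so the value of any single one is uncertain. Some pairs had almost the same scrambled mean, such as H2AC18 and H2AC19 (663.4 and 662.6 CPM) and H3C14 and H3C15 (497.3 and 497.0 CPM). If such pairs share reads, the gene counts and the summed CPM hold those reads more than once, which was not tested.

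Histone genes with a stem-loop found in the transcript models were lowered in 18 of 24 tested cases, with a median log2 fold change of -0.11, and those whose models were searched and held none in 16 of 30, with a median of -0.11. A further 3 tested histone genes had no matched model. Split by the forms printed above, lowered calls were made for 4 of 4 tested genes with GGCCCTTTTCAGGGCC (median -0.18), 3 of 3 with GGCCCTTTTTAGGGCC (median -0.12), 3 of 3 with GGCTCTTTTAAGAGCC (median -0.10), 7 of 13 with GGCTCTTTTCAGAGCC (median -0.11) and the 1 gene with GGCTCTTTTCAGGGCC (-0.14). Differences between the forms were not tested, and a stem-loop that was not found in these models is not shown to be missing from the gene.

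Across the lists of other pathway genes, histone genes apart, 9 of 104 tested genes (8.65%) were called, against 18.6% of all tested genes. Without libraries 3_2 and 3_3, 35 (33.7%) were called against 32% of all genes, and after the GC correction 35 (33.7%) against 31.5%. None of the 9 genes listed for histone gene transcription was called in edgeR's quasi-likelihood test (1 higher and 1 lower at an unadjusted p below 0.05, and 0 in DESeq2). The smallest p among them belonged to CCNE1, the cyclin E1 gene whose kinase phosphorylates NPAT, at 28.6 ± 0.907 and 30.8 ± 0.870 CPM (log2 0.11, adjusted p = 0.0591), and without libraries 3_2 and 3_3 it was called raised (adjusted p = 0.0125). In that setting the list held 1 raised and 1 lowered gene, and after the GC correction 2 raised and 1 lowered. Among 14 S phase genes none was called by edgeR (1 higher and 1 lower at an unadjusted p below 0.05, and 1 lowered in DESeq2). There the smallest p was that of MCM3, a subunit of the replicative helicase, at 368.9 ± 6.31 and 352.7 ± 6.67 CPM (log2 -0.065, adjusted p = 0.077), which was called lowered without libraries 3_2 and 3_3 (adjusted p = 0.0013). The S phase list then held 1 raised and 1 lowered gene, and after the GC correction 1 raised and 2 lowered. Of 9 genes for SLBP turnover none was called (1 higher and 0 lower at an unadjusted p below 0.05, and 0 in DESeq2), while without those libraries 1 was called raised and 0 lowered, and after the GC correction 0 raised and 1 lowered.

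Among 17 other genes of the poly(A) cleavage complex, which shares CPSF3, CSTF2 and SYMPK, 3 fell and 0 rose, with a median of -0.030. CPSF4, a zinc finger subunit that helps to read the poly(A) signal, fell from 53.2 ± 0.425 to 45.7 ± 2.36 CPM (log2 -0.22, adjusted p = 0.00021), and it was called with any 1 replicate left out. CPSF7, a subunit of cleavage factor I, fell from 158.2 ± 2.17 to 146.7 ± 2.24 CPM (log2 -0.11, adjusted p = 0.00813), a call lost without scrambled replicate 1 (adjusted p = 0.0694). PCF11, a termination factor, fell from 132.6 ± 2.45 to 123.7 ± 2.68 CPM (log2 -0.10, adjusted p = 0.0208), and leaving out any of 5 of the 6 replicates, knockdown replicate 3 being the exception, ended that call. Without libraries 3_2 and 3_3, 7 genes of the list were lowered and 2 raised, and after the GC correction 7 were lowered and 0 raised.

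Of 13 genes for Sm proteins and snRNP assembly, 12 had a log2 fold change below 0, as did 7706 of all 15678 tested genes, and a shift of the list was not tested. WDR77, a partner of the methyltransferase PRMT5, was the 1 gene called, lowered from 155.5 ± 1.63 to 144.9 ± 0.292 CPM (log2 -0.10, adjusted p = 0.0108). That call was lost without scrambled replicate 1 (adjusted p = 0.0624) or 2 (adjusted p = 0.0825), and without libraries 3_2 and 3_3 the count of lowered genes in the list was 6, and after the GC correction 4. In the Integrator complex, which ends other non-polyadenylated transcripts, 2 of 14 genes were lowered, INTS10 from 78.4 ± 1.16 to 72.8 ± 1.83 CPM and INTS13 from 67.6 ± 0.965 to 62.9 ± 2.14 CPM (adjusted p = 0.0221 and 0.0342). Both Integrator calls were lost when any replicate other than knockdown replicate 3 was left out, and without libraries 3_2 and 3_3 the list held 4 raised and 4 lowered genes, and after the GC correction 3 raised and 4 lowered.

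Among 9 cap-binding and elongation genes 2 fell. They were NCBP2, the small cap-binding subunit, from 64.1 ± 0.729 to 59.0 ± 1.58 CPM (log2 -0.12, adjusted p = 0.012), and NELFCD, a subunit of the negative elongation factor, from 148.4 ± 1.66 to 138.3 ± 2.16 CPM (log2 -0.10, adjusted p = 0.0132). NCBP2 lost its call without scrambled replicate 1 or 2 or knockdown replicate 2 (adjusted p = 0.0673, 0.0679 and 0.0766), and NELFCD without scrambled replicate 1, 2 or 3 (adjusted p = 0.0885, 0.057 and 0.0508). The list held 1 raised and 4 lowered genes without libraries 3_2 and 3_3, and 1 raised and 5 lowered after the GC correction. Of 20 genes for histone mRNA translation and decay, LSM5, a subunit of the LSM ring that starts decay from the mRNA's 3' end, rose from 21.4 ± 0.871 to 24.0 ± 2.40 CPM (log2 0.17, adjusted p = 0.0357). No other gene of that list was called in edgeR's quasi-likelihood test (1 higher, LSM5, and 2 lower at an unadjusted p below 0.05), and DESeq2 called 0 either way. The LSM5 ranges overlapped, since knockdown replicate 2 lay within the scrambled range, and without libraries 3_2 and 3_3 it was no longer called (adjusted p = 0.0739), nor without scrambled replicate 1 or 2 or knockdown replicate 1 or 3 (adjusted p = 0.188, 0.0844, 0.0788 and 0.0805). The list held 0 raised and 2 lowered genes without libraries 3_2 and 3_3, and 1 raised and 3 lowered after the GC correction.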

How the data were processed

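RNA was measured by sequencing 18 ribosomal-RNA-depleted libraries of K562 cells. Trim Galore, STAR, featureCounts and GRCh38 are the tools and build of the submitters' processing notes. Tool versions, gene annotation and the strand option were not given in the sources used here, so reads of overlapping genes on opposite strands may be mixed although the kit is directional. The values deposited by the authors are raw whole-number counts for each gene symbol. Gene-level counts mix linear and circular RNA.

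The first number of a library name was taken as the biological replicate, and its 3 technical libraries were summed. The sums were filtered with filterByExpr, scaled by TMM and tested with edgeR's robust quasi-likelihood method (version 4.0.16 under R 4.3.3), and p-values were adjusted by Benjamini-Hochberg over 15678 genes. CPM and RPKM used TMM-scaled totals, except for the summed and mean marker levels, which used library totals only. Errors are SDs over 3 sums. Histone CPM sums were compared by exact permutation. Positions, exon lengths, GC content (96.4% of tested genes) and stem-loops came from GENCODE release 29, promoters from RefSeq (GRCh38.p14). DESeq2 was version 1.42.0.

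The members and gene lists were chosen with earlier results of these data known, as was the setting without knockdown libraries 3_2 and 3_3. Named were all members, PCMTD1, CSTF2T, INTS11, and up to 3 called genes per list by smallest p (or the gene with the smallest p). A gene that the rule takes is not reported here. ATM and VRK3, whose starts overlap a member's, the markers, the stem-loop examples and the histone pairs of almost the same level fall outside this rule. They were chosen after values were seen. Alternatives were DESeq2, other scalings and count filters, the replicate block, other uses of technical libraries, each replicate left out, and a lowess correction (span 0.3) for GC content. The procedure was tested on simulated counts. Figures were drawn with matplotlib 3.10.9.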

Additional observations from a re-analysis of the deposited data

How the results depend on the processing

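Deviations of same-numbered sums correlated by 0.011 to 0.030 and those of other pairs by -0.041 to 0.027. With only 3 sums per group these values cannot decide whether the replicate numbers pair the samples, and the reported fit used no pairing. With the replicate block 1772 genes were called lowered against 1175 without it, and 2 members, SYMPK being the addition. Technical libraries entered singly gave 2036 lowered genes and 2 lowered members. Sums by the second number gave 2389 lowered genes, with 2 members lowered and 2 raised. Without knockdown libraries 3_2 and 3_3, 2426 genes and 3 members were lowered. The GC correction gave 2320 raised and 2618 lowered genes against 1745 and 1175 as reported, and 2 raised and 3 lowered members; with the replicate block added, 2625 genes were lowered and again 2 members raised and 3 lowered. Leaving out 1 replicate at a time gave 1127 to 2482 raised and 623 to 2280 lowered genes, and 1 to 4 lowered members, with 1 raised in each. Signs turned for SLBP (0.020) and CPSF3 (-0.0065) when only the first technical library was used, and for CASP8AP2 (0.0025) without knockdown replicate 1, and none of these values was called; over the fits with 1 replicate left out CASP8AP2 ran from -0.061 to 0.0025. The cause of these shifts was not tested. Depth limits LSM11 most, and changes under a few percent could not be resolved for any member.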

Other observations

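The RNA partner of LSM10 and LSM11 could not be followed. RNU7-1, the gene of the U7 small nuclear RNA, had 0 counts over the 18 libraries, which allows at most 0.00728 CPM (3 counts over all libraries, counting error only). It was chosen after its values were seen.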
